A study of Mus musculus with 35 samples.

Results

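The genes described here are 33 genes of glucose breakdown and of the response to low oxygen, chosen by symbol and matched by Ensembl identifier, out of 31053 genes counted in kidneys of newborn mice (21546 of these genes had a count in at least 1 library). All 33 had a count, and they cover glucose uptake and phosphorylation (Slc2a1, Hk1, Hk2), the upper and lower steps of glycolysis, the fate of pyruvate, the oxygen sensing machinery and classical targets of the hypoxia-inducible factors. RNA was taken from whole kidneys at postnatal day 2, before cysts form, and its 3′ ends were sequenced (QuantSeq) in 35 libraries of C57BL/6 mice of both sexes. The question put to these genes was whether they are higher when folliculin (Flcn) is lost, and whether losing Tfeb or Tfe3 as well changes that. Libraries fell into 3 crosses, each with controls of its own. Flcn KO mice (5 libraries) carried Flcn flox/flox alleles and Ksp-cre, and were compared with control Flcn mice (5 libraries). The paper gives its control mice as Flcn flox/flox. Flcn/Tfeb DKO mice (4 libraries) carried Flcn flox/flox, Tfeb flox/flox and Ksp-cre, against control Flcn/Tfeb mice (3 libraries). Flcn/Tfe3 DKO mice (10 libraries) carried Flcn flox/flox and Ksp-cre and were Tfe3 -/- in the germline. They were compared with control Flcn/Tfe3 mice (8 libraries), whose Tfe3 genotype is not given in the labels. Ksp-cre is driven by the Cdh16 promoter, which is active in collecting ducts, distal tubules and thick ascending limbs, so cells elsewhere in the kidney keep Flcn and Tfeb in every group. Each library of the Flcn cross and of the Flcn/Tfeb cross was deposited as a table of its own, here set A, and those of the Flcn/Tfe3 cross came in a pair of joint tables, called set B (3 controls, 6 DKO) and set C (5 controls, 4 DKO).

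Glycolysis turns glucose into pyruvate in the cytosol and yields ATP without oxygen, and lactate dehydrogenase recycles its cofactor by reducing pyruvate to lactate. The hypoxia-inducible factors are pairs of an oxygen-labile alpha subunit, such as HIF-1alpha (Hif1a) or HIF-2alpha (Epas1), with a stable partner; prolyl hydroxylases (Egln1, Egln3) mark the alpha subunit when oxygen is present and the VHL protein (Vhl) then sends it for degradation. When oxygen falls or VHL is lost, as in clear cell kidney cancer, the alpha subunit builds up and raises transcription of glucose transporters, glycolytic enzymes and factors such as Vegfa, and folliculin loss has been linked to the same programme in cultured cells. HIF-1alpha is regulated mostly as a protein, which RNA counts do not measure.

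Depth ran from 1652649 to 4239356 counts per library, so that a gene at 3 counts sits between 0.708 and 1.82 CPM, the count relative to the library total. Levels below are CPM scaled by trimmed-mean (TMM) factors, and they are compared between libraries of 1 gene, never between genes. The excised gene did not mark the knockout libraries, since Flcn RNA ran from 11.9 to 16.4 CPM in control Flcn and from 10.3 to 18.8 CPM in Flcn KO, and neither did Tfe3 RNA, at 15.3 to 24.8 CPM in control Flcn/Tfe3 and 12.4 to 24.6 CPM in Flcn/Tfe3 DKO. Tfeb RNA lay at 7.0, 9.34 and 19.5 CPM in control Flcn/Tfeb and at 6.48 to 7.94 CPM in Flcn/Tfeb DKO (log2 fold change -0.73, SE 0.38, adjusted p = 0.798, edgeR, or -0.12 without the highest control, replicate 3). A 3′ tag outside the deleted part of a gene checks nothing, and which exons were deleted is not given in the sources used here, so every genotype name below is that of the labels. Kidney markers were present in all 35 libraries, with Cdh16 at 196 to 365 CPM and Slc12a1, of the thick ascending limb, at 464 to 958 CPM. In whole-kidney RNA, fewer cells of a type and less RNA per cell cannot be told apart. Within set A, 3 control libraries stood apart by a low share of mitochondrially encoded counts, namely 4.88% and 4.93% in control Flcn replicates 4 and 5 and 4.47% in control Flcn/Tfeb replicate 3, against 7.33% to 11.9% in the other 14. The median of the 19 glycolysis and lactate genes, as log2 CPM less the average control library of that cross and set, was 0.53 in control Flcn/Tfeb replicate 3, while it was -0.27 and -0.21 in the other controls of that cross and -0.27 to -0.13 in Flcn/Tfeb DKO. In control Flcn replicates 4 and 5 it was 0.09 and 0.26, against -0.13 to -0.03 in the other 3 controls and -0.01 to 0.23 in Flcn KO. For the members, the log2 fold changes of the Flcn cross and of the Flcn/Tfeb cross are therefore followed by their values without these libraries.

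**Figure D1:**
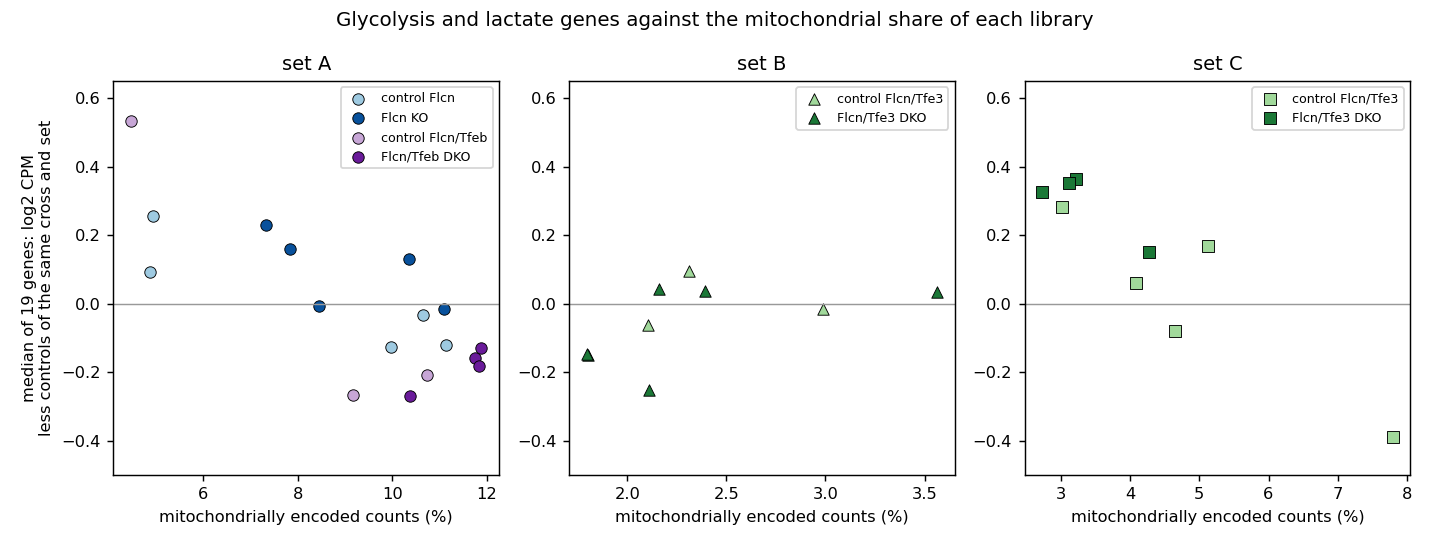
Each point is a library, with the share of its counts from mitochondrially encoded genes (%) on the x axis and the median of the 19 glycolysis and lactate genes, as log2 CPM less the average control library of that cross and set, on the y axis, in panels for sets A, B and C. Control Flcn/Tfeb replicate 3 sits at 4.47% and 0.53, the highest value of the 3 panels, and control Flcn/Tfe3 replicate 5 of set C sits at 7.80% and -0.39, the lowest.

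None of the genes passed the threshold in any of the 3 crosses taken as a whole. In Flcn KO, 31 of the genes had enough counts to be tested by edgeR's quasi-likelihood test, and 0 were called at an adjusted p under 0.05, where 0.52% of the 11932 genes tested were called. Among the 31, 21 lay above 0 and their median log2 fold change was 0.06, beside -0.01 over all genes tested. In Flcn/Tfeb DKO 0 of 31 were called, where 0% of 12469 genes were called at all, and 12 of 31 lay above 0 with a median of -0.20 (all genes, -0.02). That direction rested on 1 library, since without control Flcn/Tfeb replicate 3 the median was 0.09 with 21 of 31 above 0, and with the mitochondrial share as a covariate it was 0.19. Without control Flcn replicates 4 and 5 the median in Flcn KO was 0.17 with 23 of 31 above 0, and 0 members were called in either cross without these libraries. In Flcn/Tfe3 DKO 0 of 32 were called, against 0.385% of 12456 genes, and 21 of 32 lay above 0 with a median of 0.09 (all genes, 0.01). DESeq2 called 0 of the genes in each cross as well. Libraries of the 2 groups did not overlap for 0 of the 31 genes in Flcn KO, against 2.39% of all genes, and for 0 of the 32 in both sets of the Flcn/Tfe3 cross, against 0.305%. At an unadjusted p under 0.05 of the edgeR fit, 5 of the genes lay higher and 0 lower in Flcn KO, 0 higher and 2 lower in Flcn/Tfeb DKO, and 6 higher and 1 lower in Flcn/Tfe3 DKO, where 9.07%, 5.07% and 7.15% of all genes reached that level in either direction.

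The precision of the data sets how large a rise could have been missed. In Flcn KO the upper end of the 95% interval lay under a 2-fold rise for 29 of 31 genes, all but Eno2 and Adm, and under a 1.5-fold rise for 25. Without control Flcn replicates 4 and 5 these counts were 28 (all but Pfkfb3, Pgk1 and Eno2) and 17. In Flcn/Tfe3 DKO it lay under a 2-fold rise for all 32 genes tested and under 1.5-fold for 27, but in set C alone for 28 of 31 (all but Hk1, Hk2 and Pkm) and for 15. In Flcn/Tfeb DKO, with the fewest libraries, it lay under a 2-fold rise for 27 of 31, the others being Pgk1, Eno1, Eno2 and Adm, and without control replicate 3 for 29, the others being Pfkfb3 and Pgk1. A rise confined to the Ksp-cre cells would be diluted by the rest of the kidney in these figures, to a degree that was not tested. Reads come from the 3′ ends of transcripts, and the protein-coding genes on which the values below turn lie, in GRCm38 (mm10), at chr7:110627661-110629820 on the plus strand for Adm, chr6:124760053-124769673 on the minus strand for Eno2, chr7:46841475-46855627 on the plus strand for Ldha, chr10:62268855-62379908 on the minus strand for Hk1 and chr9:59656368-59679375 on the plus strand for Pkm.

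**Figure D2:**
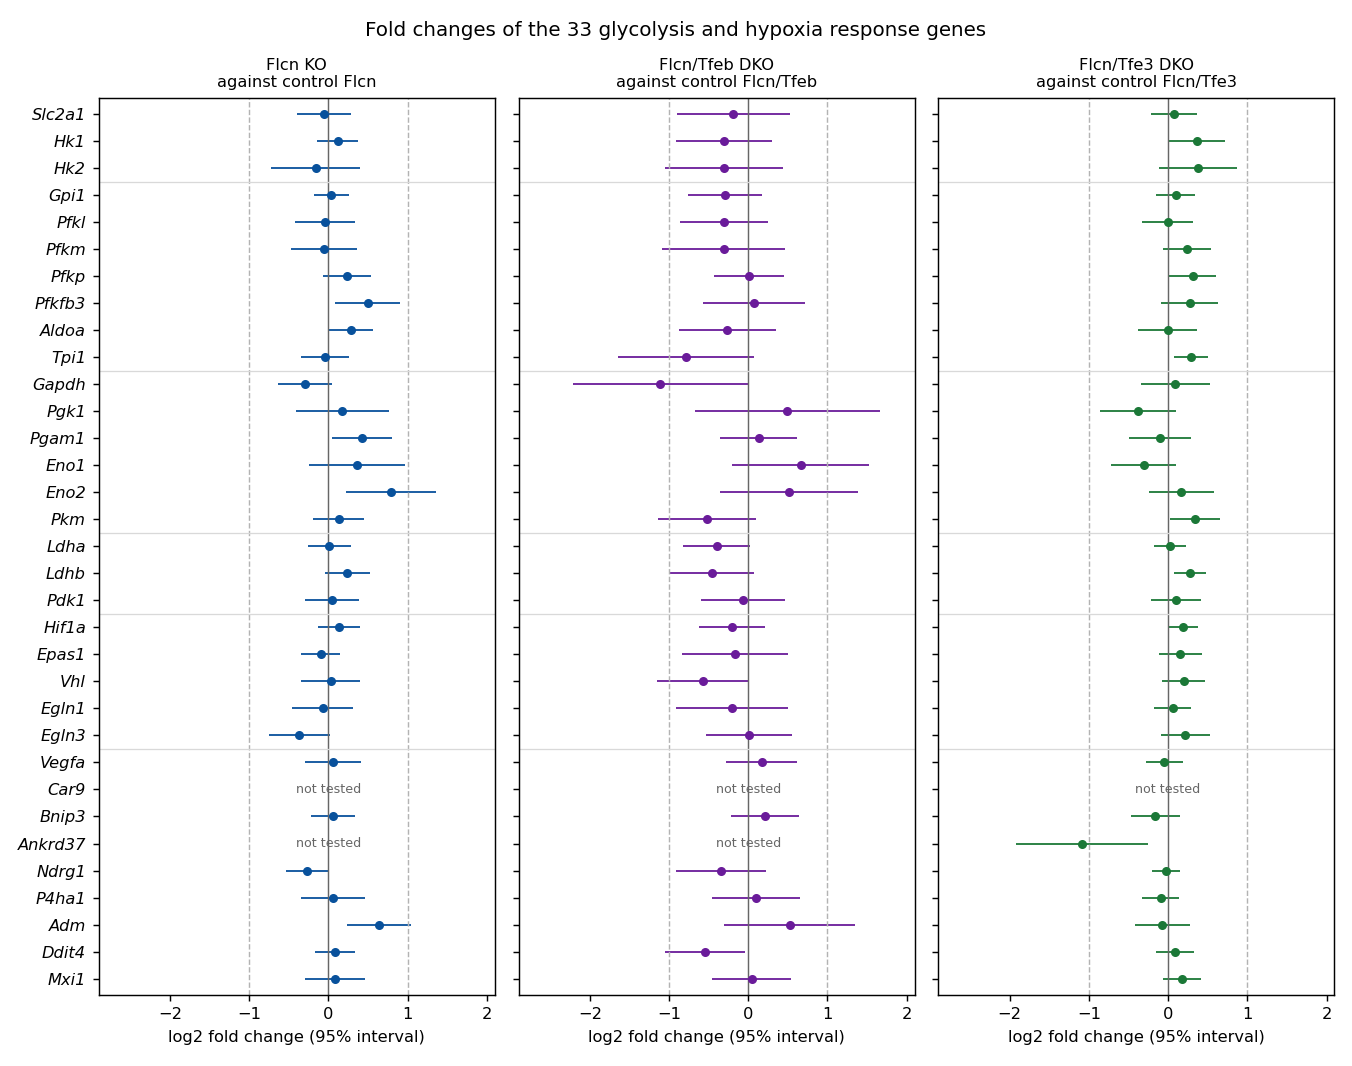
Log2 fold changes (x axis) of the 33 genes (y axis, grouped by role) in the 3 crosses, knockout against its own controls, with bars for the 95% interval from edgeR and dashed lines at 2-fold. No gene passed the adjusted threshold in a panel, and the intervals are widest in the Flcn/Tfeb cross.

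Promoter sequences of these genes were examined for the hypoxia response core, the letters ACGTG or GCGTG on either strand, since the factors of this pathway bind such a core. RefSeq promoters (GRCm38.p6, 250 bases before to 50 after the start) were matched for 31 of the 33 genes, all but Epas1 and Ndrg1, and 27 of the 31 (87.1%) held the core, as did 46.7% of 27025 genes with a promoter. The core was not among the letters of the windows of Eno2, Gpi1, Tpi1 and Vhl. The longer CACGTG, which overlaps the core on both strands and which TFEB and TFE3 can bind, was found in 5 of 31 (16.1%), and in 8.09% of all genes. For both motifs a gene was counted if any of its windows held the letters. The 31 members had 46 windows and the 27025 genes had 32851, so these shares are not matched for windows per gene. Shown are the promoters of the main glucose transporter gene, of the target gene with the lowest p in Flcn KO, of a hydroxylase gene that is itself induced by HIF, of a member window with 5 cores, and of Car12, the 1 gene of the wider pathway lists that was called in a cross taken as a whole, with each core in capitals:
Slc2a1, chr4:119108495-119108794, plus strand: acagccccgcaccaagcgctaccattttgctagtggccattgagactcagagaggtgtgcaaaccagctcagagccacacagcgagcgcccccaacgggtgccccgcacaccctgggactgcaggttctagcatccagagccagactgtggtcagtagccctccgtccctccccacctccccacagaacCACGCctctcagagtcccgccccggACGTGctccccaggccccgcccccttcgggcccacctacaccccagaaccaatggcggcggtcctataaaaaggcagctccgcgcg
Adm, chr7:110627407-110627706, plus strand: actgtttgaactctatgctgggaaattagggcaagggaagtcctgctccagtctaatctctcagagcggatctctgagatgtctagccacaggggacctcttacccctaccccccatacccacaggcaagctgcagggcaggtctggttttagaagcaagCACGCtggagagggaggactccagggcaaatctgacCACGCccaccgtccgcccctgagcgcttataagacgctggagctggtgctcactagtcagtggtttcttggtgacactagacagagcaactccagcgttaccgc
Egln3, chr12:54203825-54204124, minus strand: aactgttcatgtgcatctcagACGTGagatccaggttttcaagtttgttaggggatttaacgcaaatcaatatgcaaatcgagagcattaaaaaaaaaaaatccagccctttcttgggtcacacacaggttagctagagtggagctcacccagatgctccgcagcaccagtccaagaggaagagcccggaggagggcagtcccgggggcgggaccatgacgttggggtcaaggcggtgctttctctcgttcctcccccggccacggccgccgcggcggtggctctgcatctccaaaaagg
Bnip3, chr7:138909457-138909756, minus strand: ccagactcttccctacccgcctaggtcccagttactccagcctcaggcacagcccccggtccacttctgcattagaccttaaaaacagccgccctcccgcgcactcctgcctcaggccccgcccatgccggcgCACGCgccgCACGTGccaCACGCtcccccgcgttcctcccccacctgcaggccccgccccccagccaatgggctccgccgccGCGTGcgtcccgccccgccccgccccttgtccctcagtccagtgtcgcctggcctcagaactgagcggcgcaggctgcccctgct
Car12, chr9:66713436-66713735, plus strand: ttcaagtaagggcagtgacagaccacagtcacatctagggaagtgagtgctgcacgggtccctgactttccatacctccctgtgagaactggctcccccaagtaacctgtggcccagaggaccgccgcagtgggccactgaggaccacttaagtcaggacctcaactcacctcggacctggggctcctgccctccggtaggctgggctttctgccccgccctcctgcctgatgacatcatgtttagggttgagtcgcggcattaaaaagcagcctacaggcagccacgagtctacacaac
The Car12 window held 0 cores, and a match or its absence describes these letters only.

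The genes of glucose uptake and phosphorylation passed the test in none of the 3 crosses taken as a whole, with medians of -0.05, -0.31 and 0.36 in Flcn KO, Flcn/Tfeb DKO and Flcn/Tfe3 DKO. Without the low mitochondrial libraries the first 2 medians were 0.24 and 0.17. Slc2a1, which encodes the glucose transporter GLUT1, lay at 21.4, 18.2, 20.7, 20.05 and 22.3 CPM in control Flcn replicates 1 to 5 and at 19.3, 21.5, 19.5, 14.4 and 23.2 CPM in Flcn KO replicates 1 to 5. The groups overlapped almost completely, with a log2 fold change of -0.05 (SE 0.16, adjusted p = 0.955, edgeR) and a 95% interval from -0.39 to 0.29 (-0.01 without control replicates 4 and 5). Slc2a1 in the Flcn/Tfeb cross lay at 14.6, 18.7 and 35.9 CPM in controls 1 to 3 and at 18.3, 29.1, 17.9 and 19.7 CPM in DKO 1 to 4. Control replicate 3 was the highest of the 7 libraries, and the log2 fold change was -0.19 (SE 0.33) with it and 0.32 (SE 0.27) without it, neither called. Slc2a1 in the Flcn/Tfe3 cross ran from 11.1 to 34.9 CPM in controls (median 22.9) and from 21 to 31.4 CPM in DKO (median 24.7), overlapping, with a log2 fold change of 0.08 (SE 0.14, adjusted p = 0.949). The sets lay on opposite sides of 0, at -0.24 (SE 0.17, adjusted p = 0.768) in set B, where 5 of 6 DKO libraries were below every control, and at 0.37 (SE 0.20, adjusted p = 0.302) in set C, where 3 of 4 were above every control.

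Hk2, the inducible hexokinase that traps glucose as its phosphate, was a low gene, at 7.62, 5.0, 5.31, 11.1 and 9.10 CPM in control Flcn and 7.23, 7.46, 7.36, 8.15 and 5.57 CPM in Flcn KO. All 5 knockout values fell within the range of the controls (log2 fold change -0.16, SE 0.27, adjusted p = 0.892, and 0.24, SE 0.33, without control replicates 4 and 5). Hk2 in the Flcn/Tfeb cross was at 18.7, 12.8 and 9.77 CPM in controls and 6.75, 11.7, 11.8 and 13.8 CPM in DKO, overlapping, with a log2 fold change of -0.31 (SE 0.34), or -0.53 (SE 0.33) without control replicate 3. Hk2 in the Flcn/Tfe3 cross ran from 4.17 to 12.7 CPM in controls (median 9.35) and from 3.31 to 17.8 CPM in DKO (median 10.5), with a log2 fold change of 0.38 (SE 0.24, adjusted p = 0.794). The lowest DKO library was of set B and the highest of set C, and the log2 fold change of Hk2 was -0.00 (SE 0.35) in set B and 0.71 (SE 0.28, adjusted p = 0.154) in set C. Hk1, the constitutive hexokinase, gave 0.12 (SE 0.12), -0.31 (SE 0.28) and 0.36 (SE 0.17) as log2 fold changes in Flcn KO, Flcn/Tfeb DKO and Flcn/Tfe3 DKO, the last with an adjusted p of 0.665. Without the low mitochondrial libraries the first 2 values of Hk1 were 0.27 (SE 0.13, adjusted p = 0.667) and 0.17 (SE 0.19), so that the direction in Flcn/Tfeb DKO turned.

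The upper steps of glycolysis, from glucose 6-phosphate to the triose phosphates, were represented by 7 genes (Gpi1, Pfkl, Pfkm, Pfkp, Pfkfb3, Aldoa and Tpi1). Their median log2 fold change was 0.04 in Flcn KO (4 of 7 above 0), -0.29 in Flcn/Tfeb DKO (2 of 7) and 0.24 in Flcn/Tfe3 DKO (5 of 7), with 0 called in each. Without the low mitochondrial libraries the median was 0.15 in Flcn KO (7 of 7 above 0), and in Flcn/Tfeb DKO it turned to 0.08 (6 of 7). In Flcn KO, Pfkfb3, whose product makes the activator of phosphofructokinase, had the highest value of the 7, 0.50 (SE 0.20, adjusted p = 0.424), or 0.67 (SE 0.22, adjusted p = 0.337) without control replicates 4 and 5. Aldoa, the aldolase, stood at 0.28 there (SE 0.13, adjusted p = 0.548), or 0.39 (SE 0.12, adjusted p = 0.239) without those 2 libraries, and in Flcn/Tfeb DKO at -0.26 with control replicate 3 and 0.25 (SE 0.12, adjusted p = 0.933) without it. The phosphofructokinase subunit genes Pfkl, Pfkm and Pfkp lay between -0.06 and 0.24 in Flcn KO and between -0.31 and 0.01 in Flcn/Tfeb DKO, and Gpi1, the isomerase, lay at 0.04 and -0.29. Without the low mitochondrial libraries the 3 subunit genes lay between 0.14 and 0.23 in Flcn KO and between -0.04 and 0.13 in Flcn/Tfeb DKO, and Gpi1 lay at 0.11 and 0.04. Of the 100-base windows at the 3′ end of Pfkp transcripts, 25.3% occur also in another gene, so its value is uncertain.

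Tpi1, triose phosphate isomerase, was printed by library because its p was under 0.01 before adjustment in the Flcn/Tfe3 cross. There it ran from 84.8 to 166 CPM in controls (median 129) and from 135 to 190 CPM in DKO (median 157), overlapping, with a log2 fold change of 0.29 (SE 0.10, adjusted p = 0.428). Within set B, control values ran from 129 to 166 CPM against 135 to 190 CPM in DKO. Within set C they ran from 84.8 to 140 CPM against 143 to 168 CPM, where the groups did not overlap. The share of all genes without overlap in set C alone was not counted, so this cannot be judged against it. In set C 21.3% of all genes tested had an unadjusted p under 0.05 in the edgeR fit. The log2 fold change was 0.13 (SE 0.13, adjusted p = 0.823) in set B and 0.41 (SE 0.14, adjusted p = 0.0983) in set C. In Flcn KO, Tpi1 lay at 86.8, 133, 82.1, 109 and 135 CPM against 95.3, 110, 112, 121 and 126 CPM in controls, with the knockouts on both sides of the control range (log2 fold change -0.04, SE 0.14, and 0.05 without control replicates 4 and 5). In Flcn/Tfeb DKO it lay at 64.3, 89.4, 75.4 and 82.2 CPM against 84.6, 61.3 and 248 CPM, so that 1 control library was far above the other 6. The log2 fold change of Tpi1 in that cross was -0.79 (SE 0.39) with control replicate 3 and 0.08 (SE 0.17) without it.

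The lower steps, from glyceraldehyde 3-phosphate to pyruvate, were represented by 6 genes (Gapdh, Pgk1, Pgam1, Eno1, Eno2 and Pkm), and their medians were 0.27 in Flcn KO (5 of 6 above 0), 0.31 in Flcn/Tfeb DKO (4 of 6) and -0.00 in Flcn/Tfe3 DKO (3 of 6), with 0 called. The first 2 medians were 0.34 (4 of 6 above 0) and 0.14 (6 of 6) without the low mitochondrial libraries. Eno2, the neuronal enolase, had the highest value of all members in Flcn KO. It lay at 10.0, 5.45, 9.03, 3.96 and 8.51 CPM in control Flcn and at 13, 10.6, 14.4, 15.7 and 9.68 CPM in Flcn KO. The knockouts were above every control in 4 of 5 libraries and the groups overlapped by 1 library, with a log2 fold change of 0.79 (SE 0.27, adjusted p = 0.341). Without control Flcn replicates 4 and 5 the log2 fold change of Eno2 was 0.61 (SE 0.30, adjusted p = 0.681). In the Flcn/Tfeb cross Eno2 lay at 13.4, 14 and 4.89 CPM in controls and 12.7, 20.7, 15.6 and 11 CPM in DKO, with replicate 3 the lowest library and overlapping groups (log2 fold change 0.51, SE 0.40, and 0.09, SE 0.31, without replicate 3). In the Flcn/Tfe3 cross Eno2 ran from 3.53 to 7.75 CPM in controls (median 5.25) and from 4.23 to 8.68 CPM in DKO (median 6.37), overlapping (log2 fold change 0.17, SE 0.20, adjusted p = 0.907). Pgam1, phosphoglycerate mutase, reached 0.43 in Flcn KO (SE 0.18, adjusted p = 0.481), with 0.13 in Flcn/Tfeb DKO and -0.10 in Flcn/Tfe3 DKO, the first 2 being 0.28 and 0.09 without the low mitochondrial libraries. Pgk1, phosphoglycerate kinase, gave 0.18, 0.49 and -0.38 in the same order, with standard errors of 0.28, 0.53 and 0.23, and without those libraries its first 2 values were 0.47 (SE 0.37) and 0.32 (SE 0.64).

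Gapdh and Eno1, often taken as reference genes, were among the members that moved most with a single library. Gapdh lay at 20.4, 19.8 and 102 CPM in control Flcn/Tfeb replicates 1 to 3 and at 23, 27.2, 24.4 and 17.7 CPM in DKO, and Eno1 moved the other way, at 48.4, 40.9 and 10.6 CPM against 55.6, 46.6, 52.9 and 49.96 CPM. The log2 fold change of Gapdh was -1.11 (SE 0.50, adjusted p = 0.798) with replicate 3 and 0.18 (SE 0.24, adjusted p = 0.968) without it. For Eno1 it was 0.66 (SE 0.39) with replicate 3 and 0.20 (SE 0.17) without it. Eno1 was also low in control Flcn replicates 4 and 5, at 10.6 and 13.5 CPM against 25.7 to 40.9 CPM in the other controls and 21.8 to 36.4 CPM in Flcn KO, and its log2 fold change there went from 0.36 (SE 0.29) to -0.11 (SE 0.21) without these 2 libraries. Both genes are uncertain for another reason, since 58.9% of the 100-base windows at the 3′ end of Gapdh transcripts and 73.3% of those of Eno1 occur exactly in transcripts of other genes. The part of the low mitochondrial share in these levels was not tested. Pkm, pyruvate kinase, gave log2 fold changes of 0.13 (SE 0.15) in Flcn KO, 0.41 (SE 0.12, adjusted p = 0.199) there without control replicates 4 and 5, and -0.52 (SE 0.28) in Flcn/Tfeb DKO, or 0.02 (SE 0.12) without control replicate 3.

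The fate of pyruvate was represented by Ldha, Ldhb and Pdk1, with medians of 0.05, -0.40 and 0.10 in Flcn KO, Flcn/Tfeb DKO and Flcn/Tfe3 DKO, the first 2 of which were 0.12 and -0.05 without the low mitochondrial libraries. Ldha, the lactate dehydrogenase subunit that favours lactate formation and a standard HIF target, lay at 143, 156, 179, 181 and 196 CPM in control Flcn and at 135, 216, 172, 157 and 183 CPM in Flcn KO. Knockout values fell on both sides of the control range, with a log2 fold change of 0.01 (SE 0.13, adjusted p = 0.988) and a 95% interval from -0.26 to 0.29 (0.12 without control replicates 4 and 5). Ldha in the Flcn/Tfeb cross lay at 150, 153 and 240 CPM in controls and at 146, 141, 136 and 133 CPM in DKO, so every DKO library was below every control. Ldha was the 1 member whose groups did not overlap there, beside 5.65% of all genes tested, and its log2 fold change was -0.40 (SE 0.19, adjusted p = 0.798), or -0.13 (SE 0.12, adjusted p = 0.954) without control replicate 3. Ldha in the Flcn/Tfe3 cross ran from 115 to 263 CPM in controls (median 186) and from 135 to 292 CPM in DKO (median 232.5), and most of that range lay between sets, with DKO at 229 to 292 CPM in set B and 135 to 187 CPM in set C. With a term for the set the log2 fold change of Ldha was 0.02 (SE 0.10, adjusted p = 0.976).

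Pdk1, the kinase that shuts pyruvate dehydrogenase off and a HIF-1 target, lay at 21.9, 16.8, 20.7, 18.8 and 24.7 CPM in control Flcn and at 24.6, 21.8, 20.2, 16.9 and 22.3 CPM in Flcn KO. All knockout values were within the control range (log2 fold change 0.05, SE 0.16, adjusted p = 0.956, and 0.11 without control replicates 4 and 5). Pdk1 also overlapped in the Flcn/Tfeb cross, at 23.3, 18.7 and 30.5 CPM in controls and 19.1, 27.2, 23.6 and 24.8 CPM in DKO (-0.07, SE 0.24, and 0.15, SE 0.24, without control replicate 3), and in the Flcn/Tfe3 cross, at 16.5 to 33.7 CPM (median 22.7) and 19.5 to 35.6 CPM (median 25.4) (0.10, SE 0.15). Ldhb, the subunit that favours pyruvate, gave 0.24 (SE 0.13), -0.46 (SE 0.24) and 0.27 (SE 0.10, adjusted p = 0.432) as log2 fold changes in Flcn KO, Flcn/Tfeb DKO and Flcn/Tfe3 DKO. In the Flcn/Tfeb cross Ldhb had 1 control library, replicate 3 at 464 CPM, far above the other controls, and without the low mitochondrial libraries its values were 0.41 (SE 0.13, adjusted p = 0.244) in Flcn KO and -0.05 (SE 0.12) in Flcn/Tfeb DKO.

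**Figure D3:**
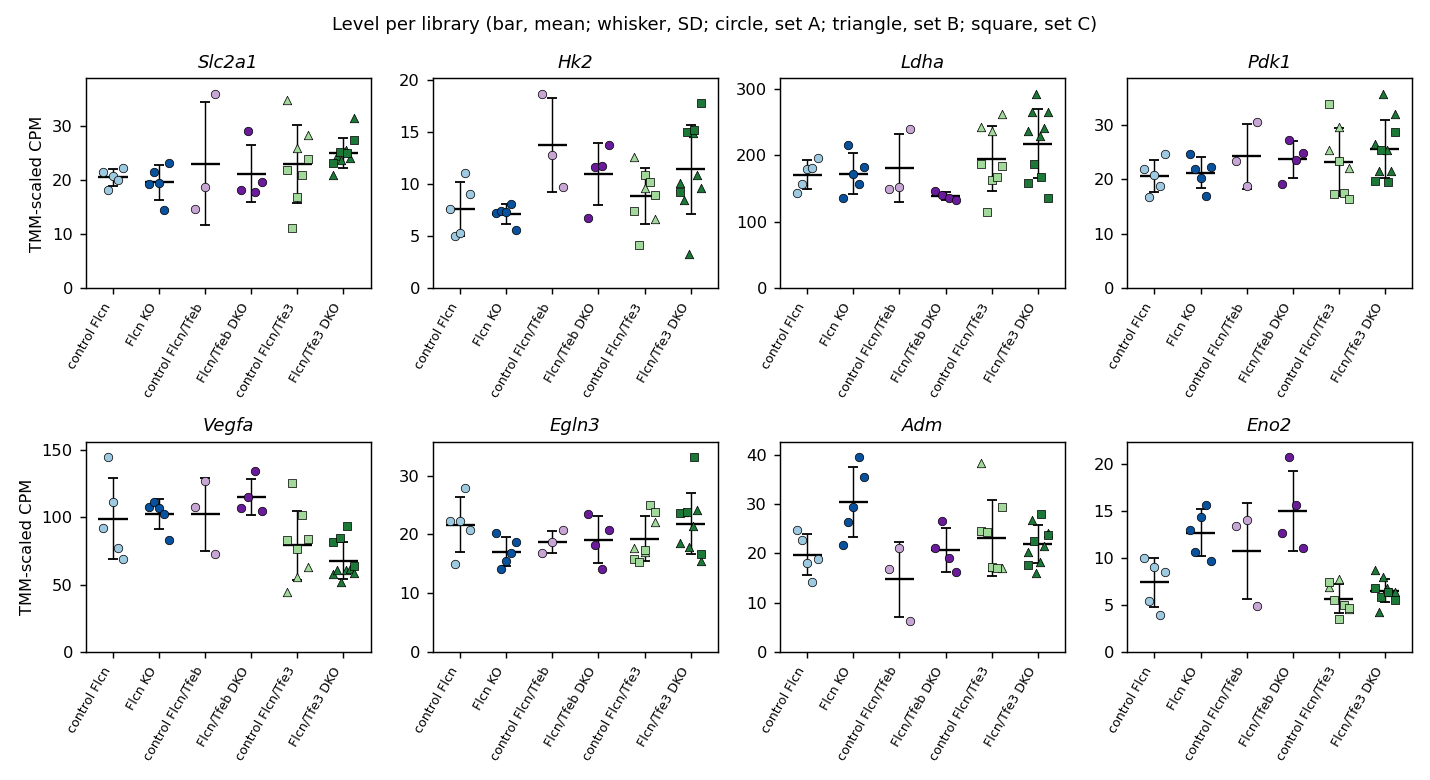
Level in TMM-scaled CPM (y axis, from 0) of 8 of the genes in each library of the 6 groups (x axis), with bars for the mean and whiskers for the SD. Groups overlap in every panel except for Ldha in the Flcn/Tfeb cross, where the 4 DKO libraries at 133 to 146 CPM lie below the 3 controls at 150 to 240 CPM.

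None of the 5 oxygen sensing genes passed the test in any cross, and their largest values were -0.36 for Egln3 in Flcn KO and -0.57 for Vhl in Flcn/Tfeb DKO. Their medians were -0.07 in Flcn KO (2 of 5 above 0), -0.20 in Flcn/Tfeb DKO (1 of 5) and 0.19 in Flcn/Tfe3 DKO (5 of 5). Without the low mitochondrial libraries both other medians turned, to 0.22 in Flcn KO (3 of 5) and 0.10 in Flcn/Tfeb DKO (3 of 5). Hif1a lay at 65.7, 77.7, 92.4, 82.9 and 96.9 CPM in control Flcn and at 71.8, 97.6, 101, 91.6 and 93.9 CPM in Flcn KO. The ranges overlapped and 2 of 5 knockouts exceeded every control, with a log2 fold change of 0.13 (SE 0.13, adjusted p = 0.774), or 0.22 (SE 0.14) without control replicates 4 and 5. In the Flcn/Tfeb cross Hif1a lay at 78.2, 66 and 98.3 CPM in controls and 61.9, 82.2, 65.1 and 75.5 CPM in DKO, overlapping (-0.21, SE 0.19, and -0.03, SE 0.16, without control replicate 3). Hif1a in the Flcn/Tfe3 cross ran from 60.5 to 92.8 CPM in controls (median 82.1) and from 79.4 to 99.6 CPM in DKO (median 92.9). These groups overlapped too, and the log2 fold change was 0.19 (SE 0.09, adjusted p = 0.659), with 0.06 (SE 0.12) in set B and 0.28 (SE 0.13) in set C.

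Epas1, which encodes HIF-2alpha, lay at 53.3, 50.9, 54.2, 53 and 56.7 CPM in control Flcn and at 58.3, 51.4, 54.1, 43.3 and 44.3 CPM in Flcn KO. Of the knockouts 1 was above and 2 were below every control, and the log2 fold change was -0.09 (SE 0.12, adjusted p = 0.840), or -0.07 without control replicates 4 and 5. Epas1 was scattered among controls of the Flcn/Tfeb cross, at 26.9, 42 and 78.2 CPM, around the 42.9, 46, 38.8 and 51.9 CPM of DKO (-0.17, SE 0.30, and 0.37, SE 0.21, without control replicate 3). In the Flcn/Tfe3 cross it ran from 32.2 to 52.9 CPM in controls (median 46.1) and from 30.9 to 65.4 CPM in DKO (median 50.4), overlapping (0.15, SE 0.13).

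Vhl, the receptor that targets hydroxylated HIF for destruction, lay at 25.2, 17.3, 26, 33.7 and 27 CPM in control Flcn and at 22.2, 24.7, 25, 34.5 and 28.5 CPM in Flcn KO, with 1 knockout just above the control range (log2 fold change 0.03, SE 0.18, adjusted p = 0.974, and 0.23, SE 0.20, without control replicates 4 and 5). Vhl in the Flcn/Tfeb cross lay at 23.3, 29.8 and 33.6 CPM in controls and at 27, 13, 19 and 19.3 CPM in DKO. Of the 4 DKO libraries 3 were below every control, with a log2 fold change of -0.57 (SE 0.26, adjusted p = 0.798), or -0.42 (SE 0.26, adjusted p = 0.948) without control replicate 3. Vhl in the Flcn/Tfe3 cross ran from 18.8 to 36.1 CPM in controls (median 29.8) and from 24.4 to 48.2 CPM in DKO (median 35.1), overlapping, and its log2 fold change was 0.20 (SE 0.13, adjusted p = 0.806). In set B, 5 of 6 DKO libraries were above every control (0.43, SE 0.16, adjusted p = 0.752), while in set C the value was -0.06 (SE 0.19). Egln3, the hydroxylase that HIF itself induces, lay at 22.4, 15, 22.3, 28 and 20.8 CPM in control Flcn and at 20.2, 14.1, 15.5, 16.9 and 18.8 CPM in Flcn KO. Of the knockouts 1 was below every control and the other 4 were within the control range, at a log2 fold change of -0.36 (SE 0.19, adjusted p = 0.576), or -0.22 (SE 0.22, adjusted p = 0.881) without control replicates 4 and 5. Egln3 overlapped in the other crosses, at 16.9, 18.7 and 20.7 CPM against 23.4, 18.1, 14.1 and 20.8 CPM in Flcn/Tfeb DKO (0.01, SE 0.25, and 0.10 without control replicate 3), and at 15.3 to 25.1 CPM (median 17.5) against 15.5 to 33.2 CPM (median 22.6) in Flcn/Tfe3 DKO (0.22, SE 0.15). Egln1, the main oxygen sensor, gave -0.07, -0.20 and 0.06 in the 3 crosses, and 0.29 (SE 0.18) and 0.31 (SE 0.26) in Flcn KO and Flcn/Tfeb DKO without the low mitochondrial libraries.

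The other classical HIF targets gave medians of 0.06 in Flcn KO (6 of 7 tested above 0), 0.10 in Flcn/Tfeb DKO (5 of 7) and -0.06 in Flcn/Tfe3 DKO (2 of 8), the first 2 becoming 0.09 (4 of 7) and -0.03 (3 of 7) without the low mitochondrial libraries. Adm, adrenomedullin, a vasodilator peptide strongly induced by hypoxia, had the lowest p of all members in Flcn KO. It lay at 24.8, 22.7, 18.1, 14.1 and 18.8 CPM in control Flcn and at 21.7, 26.4, 29.4, 39.5 and 35.5 CPM in Flcn KO. All but knockout replicate 1 were above every control, and the log2 fold change was 0.64 (SE 0.19, adjusted p = 0.239) with a 95% interval from 0.24 to 1.05. Without control Flcn replicates 4 and 5, the log2 fold change of Adm was 0.46 (SE 0.21, adjusted p = 0.609). Adm in the Flcn/Tfeb cross lay at 16.9, 21 and 6.32 CPM in controls and at 21, 26.5, 19 and 16.1 CPM in DKO, with replicate 3 the lowest (0.52, SE 0.38, or 0.10, SE 0.26, without it). Adm in the Flcn/Tfe3 cross ran from 17.1 to 38.4 CPM in controls (median 20.8) and from 16 to 28 CPM in DKO (median 22). The DKO range lay almost wholly inside that of the controls, with a log2 fold change of -0.07 (SE 0.17, adjusted p = 0.962).

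Vegfa, the endothelial growth factor, lay at 91.9, 145, 112, 77.5 and 69 CPM in control Flcn and at 107, 112, 107, 102 and 83.3 CPM in Flcn KO. All 5 knockouts were inside the wide control range (log2 fold change 0.06, SE 0.17, adjusted p = 0.944, and -0.19, SE 0.14, without control replicates 4 and 5). In the Flcn/Tfeb cross Vegfa lay at 107, 127 and 73 CPM in controls and at 107, 115, 134 and 105 CPM in DKO, overlapping (0.17, SE 0.20, and -0.03, SE 0.14, without control replicate 3). In the Flcn/Tfe3 cross it ran from 44.4 to 125 CPM in controls (median 79.7) and from 52.2 to 93.4 CPM in DKO (median 61.3), and with the set term its log2 fold change was -0.05 (SE 0.11, adjusted p = 0.962). Car9, the membrane carbonic anhydrase used as a marker of HIF-1 activity, was at or near 0 everywhere. It had 49 counts in all, in 22 of the 35 libraries, reached 1.45 CPM at most in a library of Flcn KO, and had too few counts to be tested in any cross. In control Flcn it was listed at 0, 0.909, 0.531, 0.495 and 0.294 CPM and in Flcn KO at 1.45, 1.43, 1.10, 0 and 0.293 CPM, all at or near the level of 3 counts. In the Flcn/Tfeb cross Car9 was at 0, 0.584 and 1.44 CPM in controls and 0.794, 0, 0 and 0.393 CPM in DKO, and in the Flcn/Tfe3 cross at 0 to 1.21 CPM in controls (median 0) and 0 to 1.07 CPM in DKO (median 0.293).

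Of the remaining HIF targets, Ankrd37 was the furthest from 0. It had 284 counts in all and was tested only in the Flcn/Tfe3 cross, with a log2 fold change of -1.09 (SE 0.40, adjusted p = 0.448). Its 4 DKO libraries of set C lay at 0.292 to 2.53 CPM against 2.82 to 11.1 CPM in the controls of set C. Those 4 libraries held 1 to 9 counts each, 14 in all, and Ankrd37 had too few counts to be tested in set C alone. The share of all genes without overlap in set C was not counted, so this cannot be judged against it. In set B, Ankrd37 ran from 2.11 to 3.86 CPM in DKO and from 2.63 to 4.0 CPM in controls (-0.19, SE 0.40). Ndrg1, a stress-induced differentiation gene, gave -0.27 (SE 0.13, adjusted p = 0.552) in Flcn KO, with -0.35 and -0.03 in the other crosses, and -0.22 in Flcn KO and -0.05 in Flcn/Tfeb DKO without the low mitochondrial libraries. Ddit4, the inhibitor of mTORC1 induced by low oxygen, gave 0.08, -0.54 (SE 0.23, adjusted p = 0.798) and 0.09, and without control Flcn/Tfeb replicate 3 the value of Ddit4 in Flcn/Tfeb DKO was -0.28 (SE 0.20), with 0.17 in Flcn KO without control replicates 4 and 5. Bnip3, a mitophagy receptor, P4ha1, a collagen prolyl hydroxylase, and Mxi1, a MYC antagonist, lay between -0.16 and 0.21 in all 3 crosses, and between -0.11 and 0.36 in Flcn KO and Flcn/Tfeb DKO without the low mitochondrial libraries. Within the Flcn/Tfe3 cross Bnip3 gave 0.23 (SE 0.16, adjusted p = 0.766) in set B and -0.56 (SE 0.18, adjusted p = 0.0756) in set C. Of the 3′ windows of Bnip3, 36.4% occur in other genes, so its value is uncertain.

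**Figure D4:**
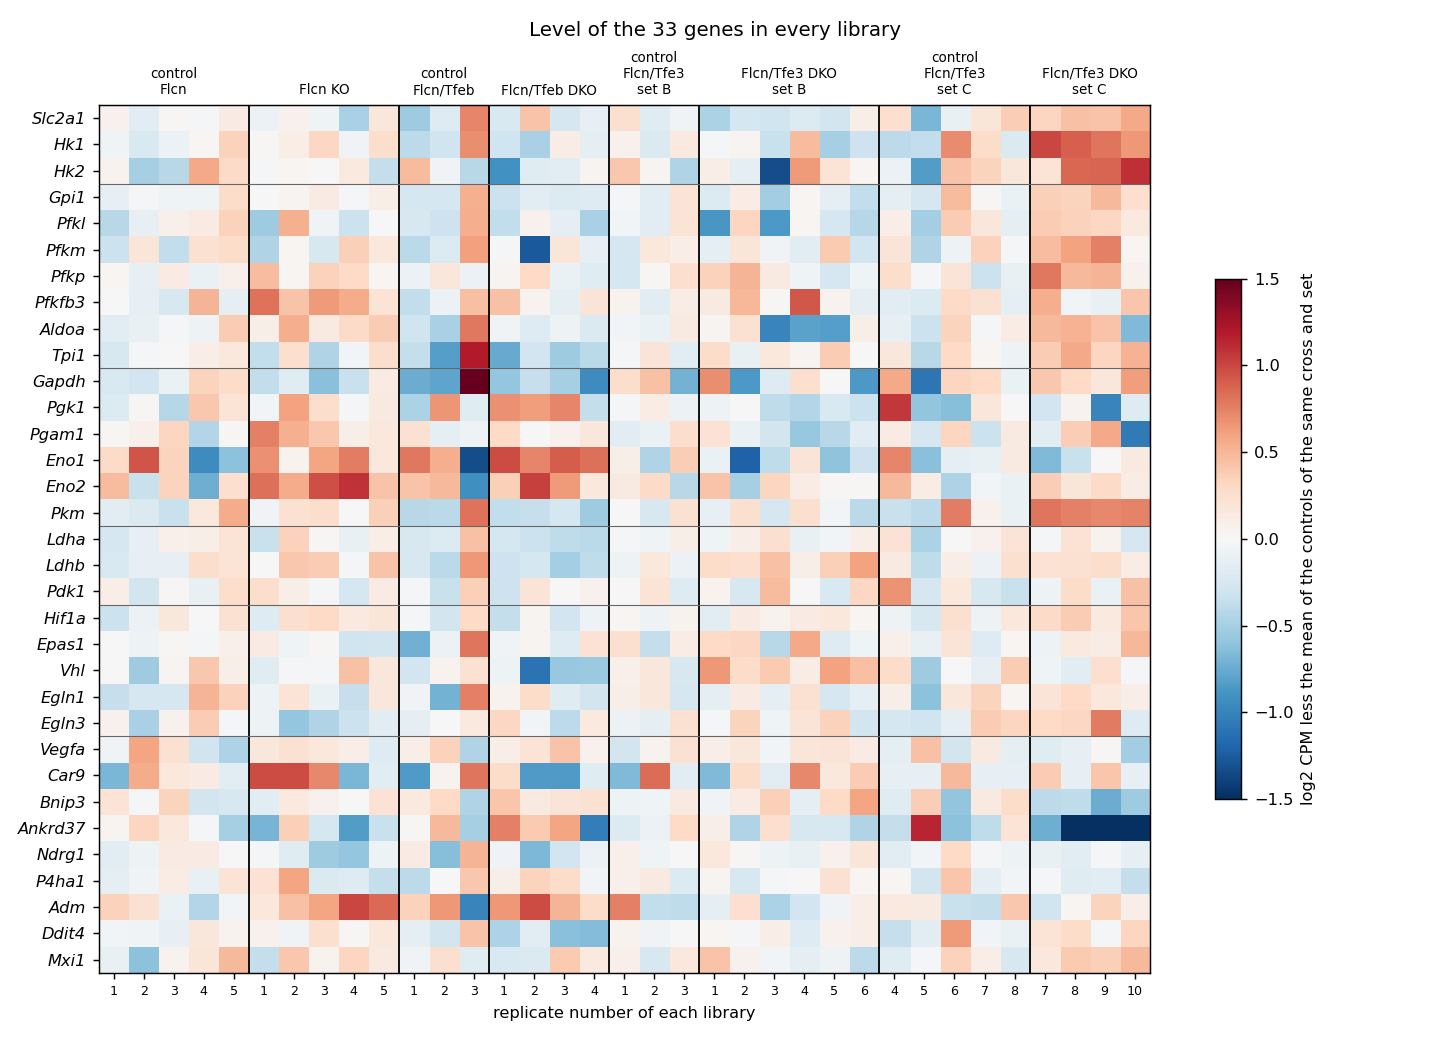
Log2 CPM of the 33 genes (y axis) in every library (x axis, by group and replicate number), less the average control library of that cross and set, from blue (lower) to red (higher). Control Flcn/Tfeb replicate 3 is red in most glycolytic genes but blue in Eno1, Eno2 and Adm, and set C of Flcn/Tfe3 DKO is red in Hk1 and Pkm.

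The crosses were then set against each other by testing whether the knockout effect differed between them in a joint model. The Flcn/Tfeb DKO effect less the Flcn KO effect had a median of -0.26 over 31 genes (6 above 0, 0 called, where 0.0153% of 13049 genes were called). The Flcn/Tfe3 DKO effect less the Flcn KO effect had a median of 0.06 over 32 genes (21 above 0, 0 called, where 0% of 13209 were called). The Flcn/Tfe3 DKO effect less the Flcn/Tfeb DKO effect had a median of 0.27 over 32 (23 above 0, 0 called, where 0.022% of 13637 were called). In the last comparison Gapdh had the largest rise of the members, 1.20 on the log2 scale (SE 0.51, adjusted p = 0.363), and Tpi1 had the lowest p, with 1.07 (SE 0.32, adjusted p = 0.279). Both rested on control Flcn/Tfeb replicate 3, and without it the difference was -0.09 (SE 0.50) for Gapdh and 0.21 (SE 0.22) for Tpi1, neither called. Both differences that involve the Flcn/Tfeb cross share its controls, and without control replicate 3 the medians were -0.03 and -0.00. Without all low mitochondrial libraries of the crosses compared, the Flcn/Tfeb DKO less Flcn KO median was -0.10 (12 of 31 above 0), and the Flcn/Tfe3 DKO less Flcn KO median turned to -0.07 (11 of 32). For Adm the Flcn/Tfe3 DKO effect less the Flcn KO effect was -0.71 on the log2 scale (SE 0.27, adjusted p = 0.661), and for Egln3 it was 0.58 (SE 0.24, adjusted p = 0.661), or -0.55 (SE 0.30) and 0.42 (SE 0.27) without control Flcn replicates 4 and 5.

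The Flcn/Tfe3 cross was also fitted in each of its sets alone. Of the 31 members tested in both sets, 18 lay on opposite sides of 0. In set B, 0 of 32 genes were called, beside 0.0606% of 13191 genes, and the median was 0.01 with 17 above 0. In set C, 2 of 31 were called, Hk1 and Pkm, beside 4.68% of 12169 genes, so that the share of members called was near that of all genes, and the median was 0.19 with 23 above 0. Hk1 lay at 35, 35.5, 75.5, 55.9 and 39.6 CPM in control replicates 4 to 8 and at 92.9, 86.2, 81.2 and 72.7 CPM in DKO replicates 7 to 10. It rose in set C by 0.75 on the log2 scale (SE 0.19, adjusted p = 0.0289), with control replicate 6 inside the DKO range, while in set B its log2 fold change was -0.07 (SE 0.19, adjusted p = 0.945). Pkm lay at 136, 131, 292, 179 and 160 CPM in those controls and at 298, 290, 283 and 287 CPM in those DKO libraries. It rose in set C by 0.67 (SE 0.19, adjusted p = 0.0435), again with replicate 6 inside the DKO range, and its log2 fold change in set B was -0.04 (SE 0.16, adjusted p = 0.960). The difference between the sets was not tested.

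The calls in set C moved with libraries and with other properties of that set. They numbered 6 without control replicate 6 (Hk1, Gpi1, Tpi1, Pkm, Bnip3 and Mxi1, with Bnip3 lower) and 1 without control replicate 7 (Hk1). They numbered 0 without any other single library of the set or with the mitochondrial share as a covariate. These counts do not show whether the log2 fold changes of Hk1 and Pkm shrank. In set C the mitochondrial share was 3.01% to 7.80% in controls and 2.72% to 4.27% in DKO, and the summed level of the red blood cell markers was 2073 to 7569 CPM in controls and 1395 to 1838 CPM in DKO, with 5 of the 5 markers tested below 0 and 4 called lower. Their part in the higher Hk1 and Pkm levels was not tested. In the median of the 19 glycolysis and lactate genes, set C controls ran from -0.39 in replicate 5 to 0.28 in replicate 6, and DKO from 0.15 to 0.36.

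The rest of the pathway was read from 2 wider lists. Of 35 other glycolysis genes, 29 were tested in Flcn KO, 29 in Flcn/Tfeb DKO and 30 in Flcn/Tfe3 DKO, with 0 called in each and medians of -0.17, -0.05 and 0.01 (the first 2 were -0.11 and 0.02 without the low mitochondrial libraries). Of 51 other HIF pathway genes, 49 were tested in each cross and 1 was called higher in Flcn KO, 0 in Flcn/Tfeb DKO and 1 higher in Flcn/Tfe3 DKO, with medians of -0.00, 0.06 and -0.03 (the first 2 were -0.01 and 0.09 without those libraries). That gene was Car12 in both cases, a membrane carbonic anhydrase of the distal nephron and collecting duct that has been described as a hypoxia-induced gene. Of all genes tested, 0.52%, 0% and 0.385% were called in Flcn KO, Flcn/Tfeb DKO and Flcn/Tfe3 DKO. In set C alone 4 of the 77 genes of both lists that were tested were called (5.19%), near the 4.68% of all genes. Car12 was 1 of them, and the others were Pgm2, a phosphoglucomutase (0.72, SE 0.18, adjusted p = 0.0292), Fbp1, the gluconeogenic phosphatase (-0.60, SE 0.14, adjusted p = 0.0211), and Eloc, elongin C of the VHL complex (-0.78, SE 0.20, adjusted p = 0.0326). None of these 3 was called in set B, where they lay at -0.31, -0.02 and 0.40, nor in set C with the mitochondrial covariate. With each of the 9 libraries of set C left out in turn, Pgm2 stayed called in 1 fit, Fbp1 in 4 and Eloc in 2, with adjusted p up to 0.130 and log2 fold changes of 0.63 to 0.86, -0.68 to -0.54 and -0.94 to -0.63. With the covariate they were 0.57, -0.49 and -0.45. Car12 stayed called in all 9 of these fits (0.80 to 0.86) and with the covariate (0.84, adjusted p = 0.0188).

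Car12 lay at 62.9, 78.6, 59.5, 67.6 and 56.1 CPM in control Flcn and at 110, 106, 103, 89 and 90.1 CPM in Flcn KO. Every knockout was above every control, where 2.39% of all genes tested in that cross did not overlap in either direction. Car12 rose 1.54-fold (log2 fold change 0.62, SE 0.12, adjusted p = 0.0171). Without the low mitochondrial control Flcn libraries it was no longer called (0.57, SE 0.13, adjusted p = 0.0576). Nor was it called without control Flcn replicate 3 or without Flcn KO replicate 1, 2 or 3 (highest adjusted p 0.0665). The log2 fold change of Car12 stayed above 0 in each of these fits. In the Flcn/Tfeb cross it lay at 74.1, 64.8 and 81.1 CPM in controls and at 66.3, 57, 67.4 and 70.02 CPM in DKO, overlapping (log2 fold change -0.18, SE 0.16, adjusted p = 0.808, and -0.09, SE 0.15, without control replicate 3). In the Flcn/Tfe3 cross Car12 ran from 58 to 78.5 CPM in controls (median 63.9) and from 102 to 120 CPM in DKO (median 111), with no overlap in set B or in set C. Of all genes tested there, 0.305% had no overlap in both sets in the same direction. Car12 rose 1.69-fold (log2 fold change 0.76, SE 0.08, adjusted p = 4.4e-06), a call lost with the replicate block (0.77, SE 0.15, adjusted p = 0.227) and with set B alone (0.65, SE 0.12, adjusted p = 0.0765), but kept with set C alone (0.83, SE 0.12, adjusted p = 0.00372). That block used only replicate numbers found in both groups, 1 to 3 in set B and 7 and 8 in set C, so fewer libraries informed the fit. The Flcn/Tfe3 DKO effect on Car12 exceeded the Flcn/Tfeb DKO effect by 0.92 (SE 0.15, adjusted p = 0.00849). The difference lay between 0.81 and 1.01 under every alternative that lost the call. These were without control Flcn/Tfeb replicate 3 (0.85, adjusted p = 0.0853) or Flcn/Tfeb DKO replicate 2 (0.87, 0.0536), set B alone (0.81, 0.685), set C alone (1.01, 0.0656), no filter on low counts (0.94, 0.0509), the mitochondrial covariate (0.81, 0.789) and the replicate block (0.97, 0.882). The Flcn/Tfeb DKO effect less the Flcn KO effect was -0.80 (SE 0.19, adjusted p = 0.378). Markers of the segments that Ksp-cre targets did not move as 1 in these libraries. Of the 5 thick ascending limb markers 1 was called in both Flcn KO and Flcn/Tfe3 DKO, Umod, the gene of uromodulin, which rose by 1.0 in Flcn KO (SE 0.12, adjusted p = 0.000396, and by 0.93 without control replicates 4 and 5) and by 0.71 in Flcn/Tfe3 DKO (SE 0.10, adjusted p = 0.000217), while 1 of 5 and 2 of 5 lay below 0 and the medians were 0.18 (0.03 without control Flcn replicates 4 and 5) and 0.08. The summed level of that list was 879 to 1288 CPM in control Flcn and 1258 to 1638 CPM in Flcn KO. In the Flcn/Tfe3 cross it was 844 to 1035 CPM and 845 to 1316 CPM in controls and DKO of set B. In those of set C it was 807 to 996 CPM and 1021 to 1079 CPM. In the Flcn/Tfeb cross, 4 of the 5 thick ascending limb markers lay below 0 with 0 called. Their summed level there was 1030 to 1069 CPM in controls and 938 to 1048 CPM in DKO. The log2 fold change of Umod in that cross was -0.24 (SE 0.26, adjusted p = 0.826, edgeR), or 0.17 (SE 0.15) without control replicate 3. Distal convoluted tubule markers lay below 0 in 3 of 4 in Flcn KO and 3 of 3 in Flcn/Tfe3 DKO, with 0 called, at summed levels of 295 to 329 CPM in control Flcn and 217 to 313 CPM in Flcn KO. Of the 8 collecting duct markers, 6 lay above 0 in Flcn KO with 2 called higher, and 5 in Flcn/Tfe3 DKO with 0 called. Within the Flcn/Tfe3 cross, 1 was called higher in set B alone and 1 lower in set C alone. The summed level of the collecting duct list was 581 to 713 CPM in control Flcn and 700 to 892 CPM in Flcn KO. In set B it was 832 to 977 CPM in controls and 807 to 1082 CPM in DKO. In set C it was 724 to 882 CPM in controls and 679 to 753 CPM in DKO. The part of these segment markers in the Car12 levels was not tested.

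**Figure D5:**
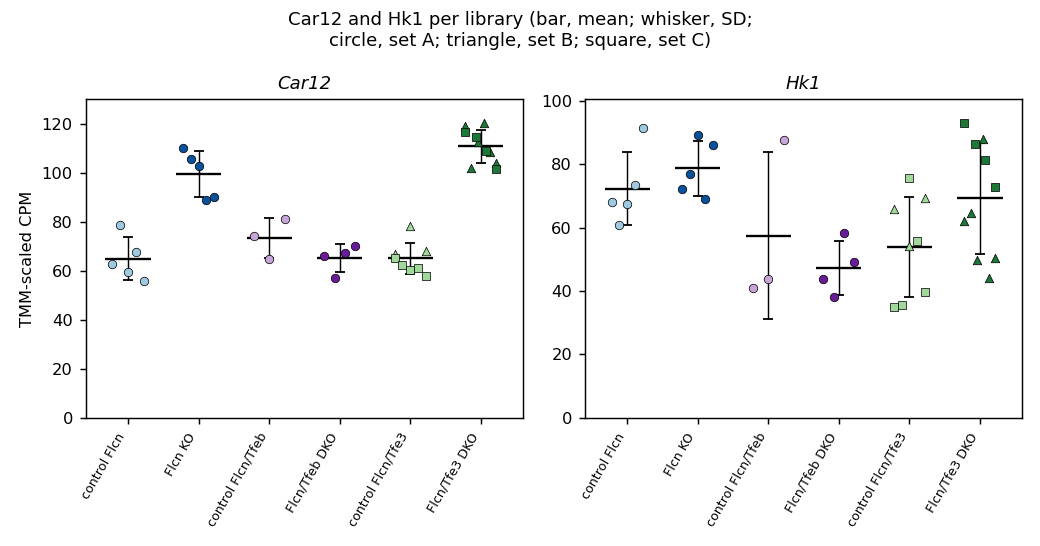
Level in TMM-scaled CPM (y axis, from 0) of Car12 and Hk1 in each library of the 6 groups (x axis), with bars for the mean, whiskers for the SD and symbols for the set. Car12 lies at 89 to 110 CPM in Flcn KO and at 102 to 120 CPM in Flcn/Tfe3 DKO, above all control libraries, and Hk1 of set C is at 72.7 to 92.9 CPM in Flcn/Tfe3 DKO.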

How the data were processed

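Total kidney RNA was made into QuantSeq 3′ libraries and sequenced as single reads by the company Next Generation Diagnostic, per the authors' methods. By the same methods, reads were trimmed with BBDuk (the labels name Trim Galore), aligned to mm10 with STAR and counted with HTSeq-count. The deposited values were raw counts per gene, 35 columns, with 0 count columns left unmapped. A percent column of multi-mapping reads that the authors deposited beside the counts held 0 in every gene and was the 1 other column not used. Between 7.92% and 19.9% of reads were tallied in no gene and 33.7% to 49.4% as not unique, in the 26 libraries that list them, and stayed out of the totals.

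Each cross was fitted with its own controls in edgeR 4.0.16 (R 4.3.3): filterByExpr, TMM factors, quasi-likelihood F-test and Benjamini-Hochberg adjustment over all genes tested, called at an adjusted p under 0.05. The Flcn/Tfe3 cross had a term for its table, and each difference between crosses came from a joint fit of the 2 crosses compared. Printed CPM are TMM-scaled; the plotted log2 CPM add a prior count of 2. Alternatives were DESeq2 1.42.0, other size factors and filters, a replicate block, covariates, each set alone and each library left out. The replicate block draws each effect only from libraries whose replicate number occurs in both groups of a cross and set. Fits were also run on simulated data, from which no value is printed here. Members, lists and tests were chosen with earlier results of these data known. Values per library are printed for members called, not overlapping or with an unadjusted p under 0.01 in a cross, and for 10 standard readouts; Hk1, Pkm, Gapdh, Eno1, Ankrd37 and Car12 were added after their values were seen. Same-group libraries differed by more than sampling noise in all 63 pairs (chi-square per degree of freedom 2.71 to 39.1). Nothing in the labels pairs libraries or says whether a library is 1 animal, so p-values measure the spread between libraries. Promoters are from RefSeq (GRCm38.p6) and gene models from GENCODE M21. Figures were drawn in Python 3.11.15.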

Additional observations from a re-analysis of the deposited data

Results flagged for a closer look

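The knockout effect on Car12 differed between crosses by the test of the difference itself: the Flcn/Tfe3 DKO effect less the Flcn/Tfeb DKO effect was 0.92 on the log2 scale (SE 0.15, adjusted p = 0.00849, edgeR), with all 10 Flcn/Tfe3 DKO libraries above their controls. In the Flcn/Tfe3 cross 0.305% of all genes tested had groups apart in both sets, in the same direction. The difference stayed between 0.81 and 1.01 while its adjusted p rose past 0.05 without control Flcn/Tfeb replicate 3 (0.85, adjusted p = 0.0853), without Flcn/Tfeb DKO replicate 2 (0.87, 0.0536), with set B alone (0.81, 0.685), with set C alone (1.01, 0.0656), with no filter on low counts (0.94, 0.0509), with the mitochondrial share as a covariate (0.81, 0.789) and with the replicate block (0.97, 0.882). A library far from the rest of its group was looked for in 72 combinations of a member with a group. These covered 12 members and groups of 4 to 6 libraries, split by set. In them 0 such libraries were found, where chance gives about 1 in 20. Groups of 3 were not looked at in this way, among them the controls of the Flcn/Tfeb cross, whose replicate 3 stood far from the others in Gapdh (102 CPM against 20.4 and 19.8) and Tpi1 (248 CPM against 84.6 and 61.3).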

How the results depend on the processing

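With 3 counts worth 0.708 to 1.82 CPM, Car9 was beyond the depth of these libraries, and Ankrd37 had 3 counts or fewer in 6 of 35. No member was called in any of the 3 crosses under RLE size factors, DESeq2, other filters on low counts, covariates, or with each library left out in turn, except that set C alone called 2 in the Flcn/Tfe3 cross. The libraries of set A under 5% mitochondrial counts were left out as an alternative chosen after seeing the data, as were all alternatives within set B or set C. In Flcn KO the median log2 fold change of the members was 0.17 without control Flcn replicates 4 and 5. In Flcn/Tfeb DKO it was 0.19 with the mitochondrial share as a covariate and 0.0896 without control replicate 3, and ran from -0.327 to 0.0896 with each library left out. The Flcn/Tfeb DKO effect less the Flcn KO effect had medians from -0.348 to -0.0337 with each library left out, the latter without control Flcn/Tfeb replicate 3, and -0.0961 without all 3 low mitochondrial libraries. The Flcn/Tfe3 DKO effect less the Flcn KO effect had a median of -0.0566 with set B alone and -0.0677 without control Flcn replicates 4 and 5. The Flcn/Tfe3 DKO effect less the Flcn/Tfeb DKO effect had a median of -0.0736 with the mitochondrial covariate, 0.12 with set B alone and -0.00089 without control Flcn/Tfeb replicate 3, and from -0.00089 to 0.43 with each library left out, with 0 to 1 member called (Tpi1, 1.40, adjusted p = 0.0276, without control Flcn/Tfeb replicate 2). In set C, 0 to 6 members were called with each library left out and 0 with the mitochondrial covariate. The cause of these shifts was not tested.

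Car12 lost its call in Flcn KO without the low mitochondrial libraries (adjusted p = 0.0576) and without control Flcn replicate 3 or Flcn KO replicates 1, 2 or 3 (highest adjusted p 0.0665), and in Flcn/Tfe3 DKO with the replicate block (adjusted p = 0.227) and with set B alone (adjusted p = 0.0765), always at a log2 fold change above 0. Replicate numbers did not pair the libraries: of 13 same-number pairs, correlations of deviations ran from -0.35 to 0.33, 4 were over 0.1 and 3 libraries correlated best with their own number. With the replicate block 0 members were called in each comparison, and medians were 0.08, -0.11 and 0.05 in Flcn KO, Flcn/Tfeb DKO and Flcn/Tfe3 DKO, where 48, 0 and 0 of all genes were called. In the Flcn/Tfe3 cross that block used only replicates 1 to 3 of set B and 7 and 8 of set C. Calls lost with it thus come with a loss of libraries. DESeq2 called 113, 0 and 96 of all genes in the 3 crosses, against 62, 0 and 48 with edgeR.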
